A study of Mus musculus with 4 samples.

Results

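Water channels and chloride transporters of secretory epithelia were examined in the sorted cells of the TAAR enhancer reporter mice. The genes were chosen by symbol, with no threshold on their values but with earlier results of these data known. They are the aquaporins *Aqp1*, *Aqp3*, *Aqp4*, and *Aqp5*, the cotransporter gene *Slc12a2*, and the chloride channel gene *Ano1*, which are 6 of the 24421 genes with deposited values. All 6 were found and all were above 0 TPM (transcripts per 1000000) in all 4 libraries, so no filter removed any of them. The cells came from the main olfactory epithelium (MOE) of transgenic C57BL/6 mice and were separated by FACS. In the TAAR enhancer 1-GFP line, TAAR enhancer 1 and the *Hsp68* minimal promoter drive GFP, and in the TAAR enhancer 2-tdTomato line TAAR enhancer 2 and the same promoter drive tdTomato. Each line descends from 1 founder, was made by PiggyBac insertion, and was sequenced as 1 library of reporter-positive and 1 library of reporter-negative cells. The labels call the mice adult. The Reporting Summary of the study instead places the GFP mice at the end of the second postnatal week and the tdTomato mice between the ends of the second and the third, of both sexes and on a mixed C57BL/6J and 129 background. All 4 groups carry a transgene, so there is no library from mice without one. With 1 library per group, no difference has a replicate check, no spread can be given, and no p-value was calculated.

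Fluid secretion by a gland begins when the cell loads chloride across its basolateral membrane, mainly through the sodium-potassium-chloride cotransporter encoded by *Slc12a2*. Chloride then leaves through apical channels, such as the calcium-activated channel encoded by *Ano1*, sodium follows, and water follows the salt through aquaporins. The nasal mucosa is kept wet by Bowman glands and other nasal glands, while supporting cells adjust the ions of the mucus in which the cilia of olfactory sensory neurons (OSNs) lie. OSNs also use *Slc12a2*, to accumulate the chloride that leaves through the channel encoded by *Ano2* during the odor response.

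The sorted cells were first checked against marker genes. The 10 markers of mature OSNs, the cell type that expresses TAAR genes in the MOE, had a summed level of 27268 TPM in GFP-negative, 2995 in GFP-positive, 27878 in tdTomato-negative, and 12528 in tdTomato-positive cells. The reporter transcripts were not analysed here. None of the 10 markers was at 0 in any library, and the lowest sum belonged to GFP-positive cells. Marker genes of other nasal cells differed as well, and the plot of marker sums shows them for all 4 libraries. The 6 Bowman gland markers summed to 3649 and 115777 TPM in the GFP-negative and GFP-positive libraries, and to 507.5 and 1898 TPM in tdTomato-negative and tdTomato-positive cells. The 5 markers of serous and mucous glands summed to 1334 and 46348 TPM in the GFP line and to 7250 and 54469 TPM in the tdTomato line, in the same order. The latter sums were mostly *Bpifa1* except in GFP-negative cells (640.7 and 43137 TPM, and 6643 and 53377 TPM), and of the 5 markers, 5 were at least 2-fold higher in the GFP line and 4 in the tdTomato line, where *Ltf* was 496.0 and 286.2 TPM. The sums of both gland lists were thus higher in reporter-positive cells. As a background for marker counts here and below, 12.8% of all genes were at least 2-fold higher in GFP-positive cells and 40.5% lower. In the tdTomato line these shares were 16.2% and 21.9%. All 6 Bowman gland markers were at least 2-fold higher in the GFP line. In the tdTomato line 4 were higher, while the secreted lipocalin gene *Obp2a* was 86.6 against 0.580 TPM (log2 difference -5.79) and *Gpx6* 209.0 against 7.54 TPM (log2 difference -4.62), both lower in tdTomato-positive cells. The 10 highest genes held 31.5% of all TPM in GFP-positive cells and 5.72% to 9.44% in the other libraries, which lowers the TPM of every other gene in GFP-positive cells.

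**Figure D1:**
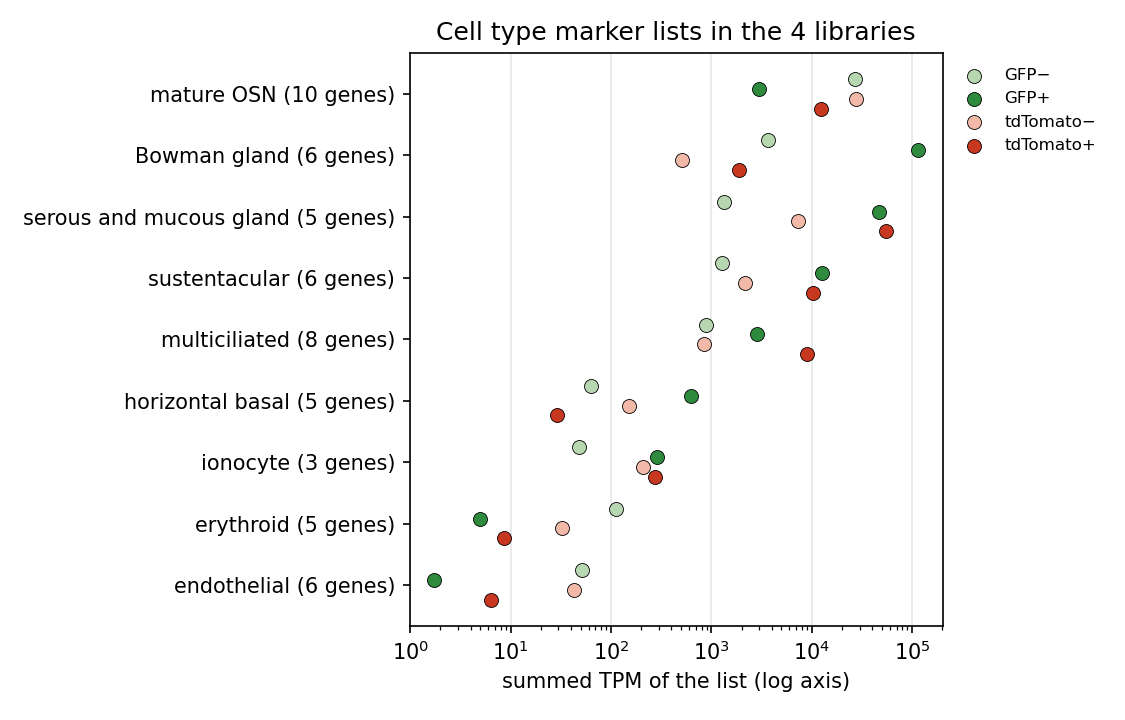
Summed TPM (log axis) of 9 cell type marker lists, with 1 point for each of the 4 libraries; light points are reporter-negative and dark points reporter-positive cells. The sums of both gland lists, the sustentacular list, and the multiciliated list lie higher in reporter-positive cells of both lines. The sustentacular sum is mostly *Cyp2a5* and *Cbr2* in tdTomato-positive cells. The sums of the mature OSN, erythroid, and endothelial lists lie lower (the last mostly through *Pecam1*). The horizontal basal list lies higher in GFP-positive cells (629.2 against 63.0 TPM) and lower in tdTomato-positive cells (29.1 against 151.6 TPM).

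In the TAAR enhancer 1-GFP line, 4 of the 6 genes (*Aqp3*, *Aqp4*, *Aqp5*, and *Ano1*) were at least 2-fold higher in GFP-positive cells on the log2(TPM + 1) scale, which adds a pseudocount of 1 and understates the change of low genes. Of all 17963 genes above 0 TPM in either library of this line, 12.8% were at least 2-fold higher. *Aqp1* was at least 2-fold lower, as were 40.5% of all genes, and *Slc12a2* differed by less than 2-fold. The median log2 difference was 3.49 for the 6 genes and -0.74 for all genes. In tdTomato mice, 4 of the 6 genes (*Aqp1*, *Aqp4*, *Aqp5*, and *Ano1*) were at least 2-fold higher in tdTomato-positive cells, against 16.2% of the 16752 genes above 0 TPM there, and none was at least 2-fold lower, against 21.9% of all genes. The medians were 1.64 for the 6 genes and -0.19 for all genes. Because the 6 genes were chosen with earlier results of these data known, their excess over all genes is a description only. *Aqp4*, *Aqp5*, and *Ano1* were higher in reporter-positive cells of both lines. With a pseudocount of 10, *Aqp1* and *Ano1* were no longer 2-fold higher in the tdTomato line, which left 2 genes. In bulk samples of sorted cells, a larger share of cells of one type and more RNA per cell cannot be told apart.

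**Figure D2:**
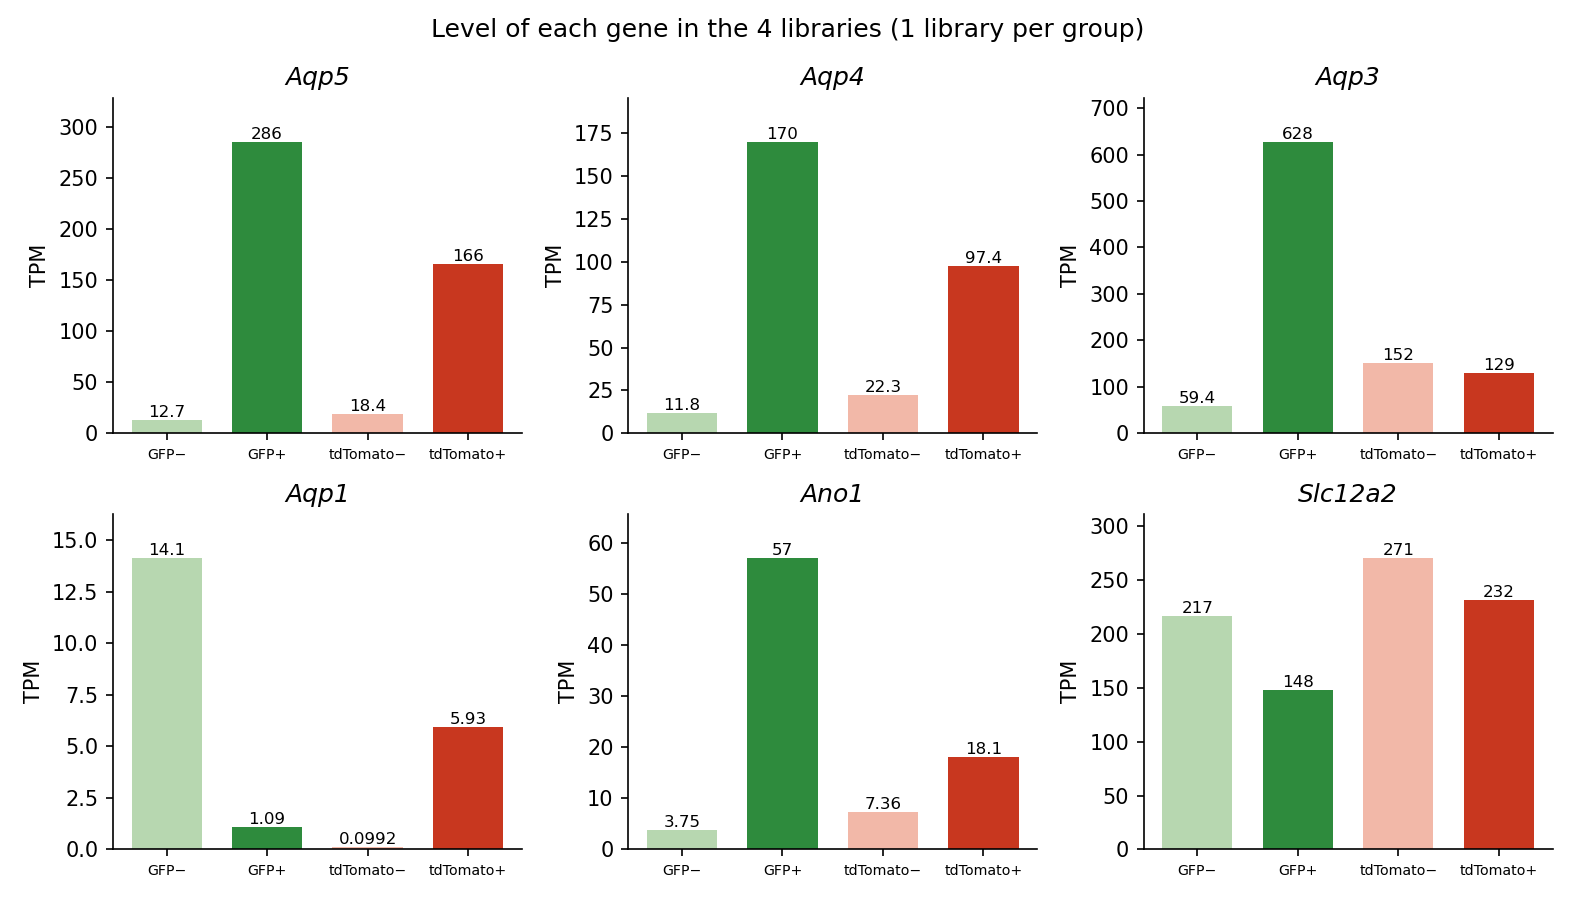
TPM of each of the 6 genes in the 4 libraries, with 1 bar per library on an axis that starts at 0 and differs between panels; there are no error bars, since each group has 1 library. *Aqp5*, *Aqp4*, and *Ano1* share 1 order of libraries (GFP-positive, tdTomato-positive, tdTomato-negative, GFP-negative), *Aqp3* stands out in GFP-positive cells alone at 628 TPM, and *Slc12a2* stays between 148 and 271 TPM.

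The start regions of *Aqp5*, *Ano1*, and *Aqp3* are shown because the first 2 genes differed alike in both lines and *Aqp3* did not. Each is the RefSeq window of 300 bases on GRCm38.p6, from 250 bases before the start site to 50 bases from it on, read 5′ to 3′ on the gene's strand. Capitals mark matches on either strand to 4 motifs, and no match overlapped another. The TATA box was searched with the letters TATAAA, the GC box with the letters GGGCGG, and the E-box with the letters CACGTG. The motif searched as CCAAT had no match in these windows. The *Aqp5* window is chr15:99590778-99591077 (plus strand), the *Ano1* window chr7:144738524-144738823 (minus strand), and the *Aqp3* window chr4:41098134-41098433 (minus strand).
Aqp5: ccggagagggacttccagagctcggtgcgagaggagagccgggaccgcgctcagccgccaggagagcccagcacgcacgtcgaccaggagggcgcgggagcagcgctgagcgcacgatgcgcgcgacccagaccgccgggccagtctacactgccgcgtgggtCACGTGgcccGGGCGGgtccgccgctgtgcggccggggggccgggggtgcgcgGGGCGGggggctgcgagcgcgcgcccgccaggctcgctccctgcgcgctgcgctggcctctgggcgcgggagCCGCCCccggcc
Ano1: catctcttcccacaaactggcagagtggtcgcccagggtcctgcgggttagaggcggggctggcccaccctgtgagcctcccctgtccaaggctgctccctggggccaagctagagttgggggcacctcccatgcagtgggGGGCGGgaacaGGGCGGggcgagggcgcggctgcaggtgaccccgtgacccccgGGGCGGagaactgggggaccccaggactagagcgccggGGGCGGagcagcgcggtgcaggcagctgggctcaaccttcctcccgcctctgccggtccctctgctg
Aqp3: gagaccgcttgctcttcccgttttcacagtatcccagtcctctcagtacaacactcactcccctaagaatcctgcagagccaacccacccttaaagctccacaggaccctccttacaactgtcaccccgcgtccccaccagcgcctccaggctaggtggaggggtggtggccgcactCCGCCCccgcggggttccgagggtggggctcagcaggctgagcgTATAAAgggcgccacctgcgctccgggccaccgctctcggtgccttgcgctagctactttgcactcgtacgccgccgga
*Aqp5* and *Ano1* had 3 and 4 GC boxes and no TATA box, whereas *Aqp3* had 1 GC box and a TATA box that begins at position -29 from the start site. The *Aqp1* window, not printed here, had 1 GC box and no TATA box, although *Aqp1* differed in opposite directions in the lines. A link between these motifs and the levels was not tested. *Aqp5* alone also had an E-box, at position -87. Among 32851 RefSeq windows of this length, 35.7% hold a GC box, 13.6% a TATA box, 37.4% the motif CCAAT, and 7.15% an E-box. The windows were rich in G and C, at 79.7% for *Aqp5*, 71.7% for *Ano1*, and 64.0% for *Aqp3*, compared with a median of 52.7% for all windows. The RefSeq starts of *Aqp5* and *Ano1* lie inside the GENCODE genes, so other starts exist. A match describes the sequence and does not show that a factor binds.

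*Aqp5*, the apical water channel of many serous gland cells, showed the largest difference of the 6 genes in each line on the log2(TPM + 1) scale. In the tdTomato line, *Aqp1* exceeded it with a pseudocount of 0.1 (4.92 against 3.17 on the log2 scale) and in the plain TPM ratio (59.8 against 9.03). Its level was 12.7 and 286 TPM in the GFP-negative and GFP-positive libraries, and 18.4 and 166 TPM in the tdTomato-negative and tdTomato-positive libraries. Both reporter-positive libraries were thus above both reporter-negative libraries. The TPM ratio was 22.5 in the GFP line (log2 difference 4.39) and 9.03 in the tdTomato line (log2 difference 3.11). Among the genes above 0 TPM in a library, 38.2% lay below *Aqp5* in the GFP-negative library and 98.1% in the GFP-positive one. The corresponding values were 42.6% in tdTomato-negative and 92.5% in tdTomato-positive cells, so that *Aqp5* stood below the middle of the expressed genes in reporter-negative cells and near the top in reporter-positive cells. The gene lies on the plus strand of chromosome 15 from 99590782 to 99594829 (GENCODE M21, GRCm38, the build of the deposited values, also called mm10) and overlaps no other annotated gene. The Bowman gland sums given above were higher in the same libraries of each line as *Aqp5*, although 2 of the 6 markers were lower in tdTomato-positive cells. The mucin gene *Muc5b*, 1 of these markers, had the library order of *Aqp5*, with 1.96 and 106.0 TPM in the GFP line and 14.2 and 104.7 TPM in the tdTomato line, and *Sox9* was 1.02 and 18.0 TPM and 1.78 and 27.5 TPM. The serous and mucous gland sum had the same 2 libraries on top as *Aqp5*. The part of gland cells in the *Aqp5* difference was not tested.

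*Aqp4*, a water channel of basolateral epithelial membranes and of astroglial end feet, followed *Aqp5*. Its level was 11.8 and 170.1 TPM in the GFP-negative and GFP-positive libraries, and it was 22.3 and 97.4 TPM in the tdTomato-negative and tdTomato-positive libraries. Again both reporter-positive libraries were above both reporter-negative ones. The TPM ratio was 14.4 (log2 difference 3.74) in the GFP line and 4.37 (log2 difference 2.08) in the tdTomato line. *Aqp4* spans 15389496 to 15410982 on the minus strand of chromosome 18, where the antisense gene AC133525.2 overlaps it. The methods of the study name Smart-seq2, which does not keep strand, while the labels name another kit, so reads of the antisense gene could be counted to *Aqp4*. The 6 sustentacular cell markers, supporting cell genes that include *Cyp2g1* and *Cbr2*, summed to 1288 and 12614 TPM in the GFP-negative and GFP-positive libraries, and to 2185 and 10312 TPM in the tdTomato-negative and tdTomato-positive libraries, and none was at 0. All 6 were at least 2-fold higher in the GFP line. In the tdTomato line 2 were higher, 2 lower, and 2 within 2-fold. The higher ones, *Cyp2a5* (745.2 and 3572 TPM) and *Cbr2* (855.3 and 6327 TPM), made up most of the tdTomato-positive sum. The lower ones were *Cyp2g1* (248.2 and 84.9 TPM) and *Cyp1a2* (36.9 and 10.9 TPM). The part of sustentacular cells in the *Aqp4* difference was not tested.

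*Ano1*, the calcium-activated chloride channel of secretory cells, was the third gene with higher levels in both lines. Its level was 3.75 and 57.0 TPM in the GFP-negative and GFP-positive libraries, and it was 7.36 and 18.1 TPM in the tdTomato-negative and tdTomato-positive libraries. The TPM ratio was 15.2 (log2 difference 3.61) in the GFP line and 2.46 (log2 difference 1.19) in the tdTomato line. The levels kept the order of the libraries seen for *Aqp5* and *Aqp4*, but tdTomato-positive cells were closer to their negative control. *Ano1* runs from 144588549 to 144751974 on the minus strand of chromosome 7, and the antisense gene Gm44930 lies within it, so that the reservation about strand holds for *Ano1* too.

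The related gene *Ano2*, the channel of OSN cilia, went the other way, with 374.5 TPM in GFP-negative, 44.5 in GFP-positive, 483.5 in tdTomato-negative, and 260.7 in tdTomato-positive cells. *Ano1* therefore made up 0.992% of the summed *Ano1* and *Ano2* TPM in the GFP-negative library and 56.1% in the GFP-positive one. The share was 1.50% in tdTomato-negative and 6.50% in tdTomato-positive cells. A share within a library does not depend on how the libraries are scaled to each other. In GFP-positive cells alone, the epithelial channel gene exceeded the neuronal one.

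*Aqp3*, a channel for water and glycerol that is typical of basal epithelial cells, was the most abundant aquaporin in 3 of the 4 libraries. Its level was 59.4 and 628 TPM in the GFP-negative and GFP-positive libraries, a TPM ratio of 10.6 (log2 difference 3.38). It was 152.0 and 129.3 TPM in the tdTomato-negative and tdTomato-positive libraries (log2 difference -0.23), so that 1 library stood far above the other three. The difference of the log2 differences between the lines was 3.61. After scaling to mature OSN markers, the tdTomato difference turned to 0.80, and the GFP difference became 6.44. The gene spans 41092722 to 41098183 on the minus strand of chromosome 4 and overlaps no other gene. The 5 markers of horizontal basal cells, the resting stem cells of the epithelium, summed to 63.0 and 629.2 TPM in the GFP-negative and GFP-positive libraries, with 4 of 5 at least 2-fold higher. Their sum was 151.6 and 29.1 TPM in the tdTomato-negative and tdTomato-positive libraries, with 5 of 5 at least 2-fold lower, and none was at 0. The marker sum thus differed far more in the tdTomato line than *Aqp3*, which was 1.17 times lower. The part of basal cells in the *Aqp3* pattern was not tested.

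*Aqp1*, the water channel of red blood cells and of many capillaries, was the least abundant of the 6 in 3 libraries and the only one with opposite differences of at least 2-fold. Its level was 14.1 and 1.09 TPM in the GFP-negative and GFP-positive libraries, and it was 0.0992 and 5.93 TPM in the tdTomato-negative and tdTomato-positive libraries. The log2 differences were -2.86 in the GFP line and 2.66 in the tdTomato line. Scaling to mature OSN markers gave -0.53 in the GFP line, so that *Aqp1* was then no longer 2-fold lower. The values are low, the number of reads behind them is unknown, and the tdTomato difference was 4.92 with a pseudocount of 0.1 and 0.66 with a pseudocount of 10. The 2 reporter-negative libraries differed from each other more than either line did, by 3.78 on the log2 scale, higher in GFP-negative cells. The 6 endothelial markers summed to 51.6 TPM in GFP-negative, 1.72 in GFP-positive, 42.9 in tdTomato-negative, and 6.43 in tdTomato-positive cells, and most of each sum was *Pecam1*, which immune cells also express (41.2, 1.10, 41.0, and 6.29 TPM in the same order). Of the 6, 3 were at least 2-fold lower in the GFP line, while 2 were lower and 4 within 2-fold in the tdTomato line. Among all genes, 40.5% were lower in the GFP line and 21.9% in the tdTomato line. *Emcn*, the next most abundant endothelial marker in GFP-negative cells, was 6.40, 0.107, 0.0469, and 0.0809 TPM, and *Kdr*, *Tek*, and *Flt1* were also highest in GFP-negative cells, as *Aqp1* was, and below 0.04 TPM in both tdTomato libraries. *Cdh5* was at 0 in GFP-positive cells, and *Cdh5* and *Tek* were at 0 in tdTomato-positive cells. The 5 erythroid markers summed to 112.0 TPM in GFP-negative, 4.95 in GFP-positive, 32.4 in tdTomato-negative, and 8.61 in tdTomato-positive cells, with *Hba-a1* and *Hbb-bs* at 0 in every library and *Slc4a1* at 0 in tdTomato-positive cells. Of the 3 erythroid markers above 0 TPM, 3 were at least 2-fold lower in the GFP line (40.5% of all genes). In the tdTomato line, where *Aqp1* was higher, 2 of them were lower (21.9% of all genes). Their part in the *Aqp1* levels was not tested. *Aqp1* lies on the plus strand of chromosome 6 from 55336432 to 55348555 and overlaps no other gene.

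*Slc12a2*, the chloride loader shared by gland cells and OSNs, varied least. Its level was 217 and 148 TPM in the GFP-negative and GFP-positive libraries, and it was 271 and 232 TPM in the tdTomato-negative and tdTomato-positive libraries. The highest library exceeded the lowest by a factor of 1.83, while the factor was at least 10.6 for each of the other 5 genes. The log2 differences were -0.55 in the GFP line and -0.22 in the tdTomato line. The direction in the GFP line depended on the scaling of the libraries, with 0.33 after median-ratio scaling, -0.05 after rescaling without the highest genes, and 2.52 after scaling to mature OSN markers, which gave 0.81 in the tdTomato line. Ratios within a library avoid that choice but depend on the gene in the denominator. The ratio of *Slc12a2* to *Ano2* TPM was 0.580 in GFP-negative and 3.32 in GFP-positive cells, and 0.560 in tdTomato-negative and 0.889 in tdTomato-positive cells. The ratio was thus alike in both reporter-negative libraries and higher in both reporter-positive ones. *Ano2* itself was lower in reporter-positive cells (44.5 against 374.5 TPM, and 260.7 against 483.5 TPM), while *Slc12a2* was not higher as deposited. The share of *Slc12a2* in its cotransporter family, given below, moved in opposite directions in the lines. In every library 95.1% to 96.4% of the genes above 0 TPM lay below *Slc12a2*. It spans 57878678 to 57946821 on the plus strand of chromosome 18, with no overlapping gene.

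Set against each other, the aquaporins changed in make-up as well as in level, as the bars of aquaporin shares show. The summed TPM of all 12 aquaporin genes was 107.3 in GFP-negative, 1138 in GFP-positive, 201.4 in tdTomato-negative, and 419.3 in tdTomato-positive cells. *Aqp3* made up 55.3% of this sum in GFP-negative and 55.2% in GFP-positive cells, and 75.5% in tdTomato-negative but 30.8% in tdTomato-positive cells. *Aqp5* made up 11.8% and 25.1% in the GFP line and 9.12% and 39.6% in the tdTomato line. The share of *Aqp5* was therefore higher in both reporter-positive libraries, and *Aqp5* replaced *Aqp3* as the leading aquaporin in tdTomato-positive cells. *Aqp4* made up 11.0% and 15.0% in the GFP line and 11.1% and 23.2% in the tdTomato line. *Aqp1* made up 13.2% in GFP-negative cells and between 0.0493% and 1.41% in the other libraries.

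**Figure D3:**
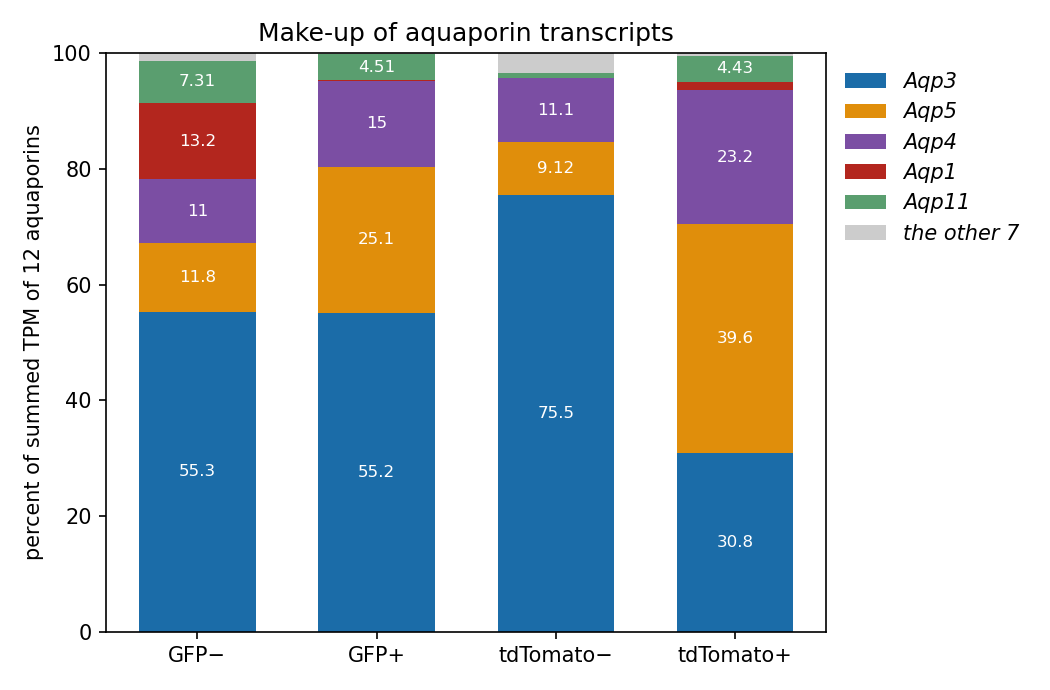
Share of each aquaporin gene in the summed TPM of 12 aquaporins, in percent, with 1 bar per library; gray stands for the other 7 genes together. *Aqp3* takes the largest part of 3 bars (55.2% to 75.5%), and *Aqp5* takes the largest part of the tdTomato-positive bar (39.6%).

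Levels were also compared between the lines. *Aqp3* was 4.85 times higher in GFP-positive than in tdTomato-positive cells and *Ano1* 3.15 times higher. *Aqp4* and *Aqp5* differed less, by factors of 1.75 and 1.72, higher in GFP-positive cells. *Slc12a2* was lower in GFP-positive cells, by 0.64 on the log2 scale, which is near the median of all 17316 genes above 0 TPM in either library (-0.55). Between the 2 reporter-negative libraries, *Aqp3*, *Aqp4*, *Aqp5*, *Slc12a2*, and *Ano1* were each higher in tdTomato-negative cells, by factors of 1.25 (*Slc12a2*) to 2.56 (*Aqp3*), while the median log2 difference of all genes was -0.03 for GFP-negative minus tdTomato-negative cells. These controls thus did not start from the same level. The lines differ in enhancer, reporter, insertion, sort, and possibly mouse age, which cannot be told apart here.

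The other genes of the secretion pathway were grouped in 9 lists with 66 genes, and the scatter of differences shows 20 that reached 10 TPM in any library and differed at least 2-fold in a line. In the GFP line, 62 of the 66 were above 0 TPM, of which 18 (29.0%) were at least 2-fold higher and 12 (19.4%) at least 2-fold lower, against 12.8% and 40.5% of all genes. With median-ratio scaling the counts were 26 and 4, against 20.4% and 19.6% of all genes. Among the genes named below as lower in GFP-positive cells, *Ano8*, *Slc12a7*, *Atp1b1*, *Car2*, *Oxsr1*, and *Orai1* were then within 2-fold, with log2 differences from -0.92 (*Car2*) to -0.30 (*Atp1b1*). In the tdTomato line, 9 of 58 (15.5%) were higher and 13 (22.4%) lower, which is close to the 16.2% and 21.9% of all genes. The median log2 difference was 0.14 in the GFP line and -0.11 in the tdTomato line. The pathway as a whole thus did not move like *Aqp4*, *Aqp5*, and *Ano1* in the tdTomato line. The lists were also chosen with earlier results of these data known.

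**Figure D4:**
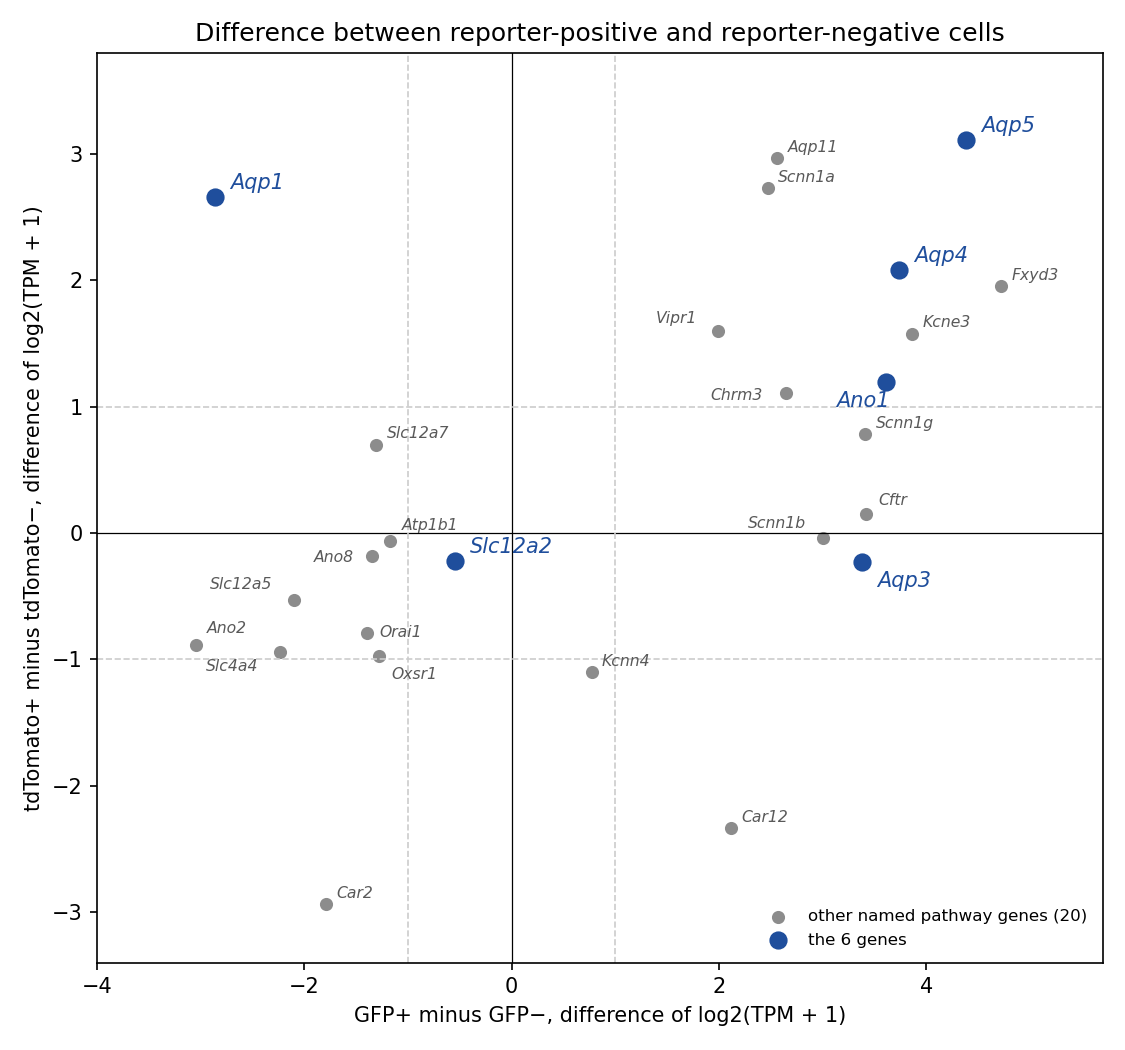
Difference of log2(TPM + 1) between reporter-positive and reporter-negative cells in the GFP line (x axis) and the tdTomato line (y axis); blue points are the 6 genes, gray points 20 other named pathway genes, and dashed lines mark 2-fold differences. *Aqp5*, *Aqp4*, and *Ano1* lie at the upper right, *Aqp1* at the upper left (-2.86 and 2.66), *Aqp3* at the right near the zero line (3.38 and -0.23), and *Slc12a2* near the center.

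Of the 8 other aquaporins, 5 were above 0 TPM in the GFP line, with 2 higher, 1 lower, and 2 within 2-fold, and the counts were the same in the tdTomato line. The shares over all genes were 12.8% higher and 40.5% lower in the GFP line and 16.2% higher and 21.9% lower in the tdTomato line, and counts of so few genes say little against them. *Mip* and *Aqp12* were at 0 in every library. *Aqp11*, a water and glycerol channel of intracellular membranes, was the one that passed 10 TPM, with 7.85 TPM in GFP-negative, 51.3 in GFP-positive, 1.50 in tdTomato-negative, and 18.6 in tdTomato-positive cells. Its log2 differences were 2.56 in the GFP line and 2.97 in the tdTomato line, so that it was higher in reporter-positive cells of both. Among the 9 other anoctamins, 1 was higher and 2 were lower of 8 above 0 TPM in the GFP line, where 12.8% of all genes were higher and 40.5% lower. None was higher and 1 lower of 7 in the tdTomato line, against 16.2% and 21.9% of all genes. Besides *Ano2*, *Ano8* was lower in GFP-positive cells (log2 differences -1.34 and -0.18).

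Apical anion channels and exchangers gave 2 higher and none lower of 8 in the GFP line (12.8% and 40.5% of all genes), and 1 higher and 3 lower of 7 in the tdTomato line (16.2% and 21.9% of all genes). Every gene counted as higher or lower in the tdTomato line stayed below 10 TPM in all 4 libraries. *Cftr*, the cyclic AMP-regulated chloride channel, was 1.01 and 20.4 TPM in the GFP-negative and GFP-positive libraries, and 15.4 and 17.2 TPM in the tdTomato-negative and tdTomato-positive libraries. Like *Aqp3*, it was much lower in GFP-negative cells than in the tdTomato-negative control. *Cftr* is known for its high level in ionocytes, and the 3 ionocyte markers *Foxi1*, *Ascl3*, and *Atp6v1b1* summed to 48.3, 285.7, 210.1, and 272.1 TPM in the same order of libraries, with none at 0. Their part in the *Cftr* levels was not tested.

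Among the 10 genes that load anions at the basolateral side or belong to the cotransporter family of *Slc12a2*, 5 were at least 2-fold lower in GFP-positive cells and none was higher, against 40.5% lower and 12.8% higher among all genes. In the tdTomato line 1 of the 10 was lower and none was higher, against 21.9% and 16.2% of all genes. The sodium bicarbonate cotransporter gene *Slc4a4*, which serves anion loading, had a log2 difference of -2.23 in the GFP line and -0.94 in the tdTomato line. The product of *Slc12a5* carries potassium and chloride out of cells, and the gene had log2 differences of -2.10 and -0.53. *Slc12a7*, of the same function, was lower in GFP-positive cells (-1.31) and was 125 and 203.1 TPM in the tdTomato-negative and tdTomato-positive libraries. *Slc12a2* made up 51.5% and 67.9% of the summed TPM of the 7 cotransporter genes examined in GFP-negative and GFP-positive cells, and 55.4% and 47.9% in tdTomato-negative and tdTomato-positive cells, so its share moved in opposite directions in the lines.

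The sodium pump and potassium channel list gave 2 higher and 1 lower of 8 genes in each line, against 12.8% higher and 40.5% lower of all genes in the GFP line and 16.2% and 21.9% in the tdTomato line. *Fxyd3*, a regulator of the sodium pump, was 14.7 TPM in GFP-negative, 413 in GFP-positive, 15.3 in tdTomato-negative, and 62.3 in tdTomato-positive cells. *Kcne3*, a subunit of basolateral potassium channels that sustain chloride secretion, was 1.92 and 41.4 TPM in the GFP line and 7.13 and 23.3 TPM in the tdTomato line. Both were higher in both lines, as *Ano1* was. The pump subunit gene *Atp1b1* was lower in GFP-positive cells (-1.18, and -0.06 in the tdTomato line), and the calcium-activated potassium channel gene *Kcnn4* had log2 differences of 0.77 and -1.10, the latter -0.94 and thus within 2-fold after median-ratio scaling.

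Of the carbonic anhydrases, which supply bicarbonate, 3 of 5 were higher and 1 lower in the GFP line, against 12.8% and 40.5% of all genes, and 2 of the 3 stayed below 10 TPM in every library. In the tdTomato line none of 4 was higher and 3 were lower, against 16.2% and 21.9% of all genes, and the difference between the lines was not tested. *Car2* was lower in both lines (-1.79 and -2.94), and *Car12* was 3.39 and 18.0 TPM in the GFP line and 8.95 and 0.970 TPM in the tdTomato line. The list of ion absorption gave 4 higher of 5 in the GFP line, against 12.8% of all genes, and 1 higher of 4 in the tdTomato line, against 16.2%, and none was lower, against 40.5% and 21.9% of all genes. *Scnn1a*, the pore subunit of the epithelial sodium channel, was 13.2 TPM in GFP-negative, 77.6 in GFP-positive, 27.6 in tdTomato-negative, and 188.8 in tdTomato-positive cells. The other subunits *Scnn1b* (3.01 and -0.04) and *Scnn1g* (3.41 and 0.78) were at least 2-fold higher only in the GFP line, a difference between the lines that was not tested.

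Receptors and kinases that control secretion gave 4 higher and 2 lower of 13 in the GFP line, where 12.8% and 40.5% of all genes were higher and lower, and 3 higher and 3 lower of 13 in the tdTomato line, where the shares were 16.2% and 21.9%. *Chrm3*, the muscarinic receptor of glands, was 1.21 and 12.8 TPM in the GFP line and 4.08 and 9.94 TPM in the tdTomato line. *Vipr1*, a receptor for vasoactive intestinal peptide, was 3.05 and 15.1 TPM and 5.68 and 19.3 TPM, respectively. *Oxsr1*, a kinase that activates the *Slc12a2* product (-1.28 and -0.97), and *Orai1*, the store-operated calcium channel (-1.40 and -0.79), were lower in GFP-positive cells.

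The profiles of the 6 genes over the 4 libraries were compared by the Euclidean distance of log2(TPM + 1) values centered on each gene's mean. Among the 15 pairs, *Aqp4* and *Ano1* were closest (0.76), followed by *Aqp4* and *Aqp5* (0.88) and *Aqp3* and *Ano1* (1.02). *Aqp1* and *Aqp5* were farthest apart (5.21). Among the 13010 genes of at least 10 TPM in any library, those nearest to *Aqp5* were *Slc22a18* (0.13), *Upk2* (0.36), and *Aldh3a1* (0.42), and *Aldh3a1* was 14.5, 301.5, 29.1, and 207.3 TPM in GFP-negative, GFP-positive, tdTomato-negative, and tdTomato-positive cells. Nearest to *Aqp4* were *Mlph* (0.29), *D630039A03Rik* (0.36), and *Itln1* (0.39). Nearest to *Ano1* were *Kcnk1* (0.30), *Plekhs1* (0.32), and *Mab21l3* (0.34). *Aqp3* had *Ajuba* (0.35), *Egf* (0.36), and *Ern2* (0.36). *Aqp1* had *Olfr678* (0.34), *Pgpep1l* (0.40), and *Olfr1425* (0.47), all low genes. *Slc12a2* had *Atf1* (0.03), *Txndc15* (0.04), and *Vps37c* (0.04), which is closer than for the other 5 genes. The 4 values of a profile share their libraries and scaling, and a small distance over 4 points is a description only.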

How the data were processed

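The authors deposited TPM for 24421 gene symbols, with 1 column for each of the 4 libraries and a sum of 1000000 in each. The submitters' processing notes name Trimmomatic 0.36, Salmon 1.4.0, and mm10, while the methods of the study name Hisat2 and Cufflinks for its RNA-seq, and the kits named also differ (Smart-seq2, which does not keep strand, in the methods and another library kit in the labels). Which step gave the TPM values, the gene annotation, and the strand setting are not given in the sources used here. TPM keeps no depth, so no counting interval or detection limit was calculated. TPM was used as deposited. Differences are log2(TPM + 1), reporter-positive minus reporter-negative, and a gene was counted from 2-fold on, beside the share of all genes above 0 TPM in either library. With 1 library per group, no test was made. The 6 genes, the 9 pathway lists, and the 14 marker lists were chosen with earlier results of these data known. Named genes are the 6 genes, pathway genes of at least 10 TPM in any library and at least 2-fold different in a line, and the 3 genes nearest in profile to each of the 6. Of these, 2 pathway genes are not reported by name here. *Ano2* and the marker genes are named where a result turns on them. Alternatives were pseudocounts of 0.1 and 10, a 4-fold limit, a 1 TPM minimum, and 3 scalings, namely by median ratio, without the 10 highest genes of each library, and to 10 mature OSN markers. Calculations were tested on simulated data. Positions are from GENCODE M21 (GRCm38), where 23376 symbols matched, and sequences from RefSeq (GRCm38.p6). Of the 6 genes, 4 had a usable promoter sequence. Python 3.11.15, NumPy 2.4.6, pandas 2.3.3, and matplotlib 3.10.9 were used.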

Additional observations from a re-analysis of the deposited data

Results flagged for a closer look

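Each of these genes had log2 differences of opposite sign in the GFP line and the tdTomato line, however small. With 1 library per group, how far the lines differ was not tested. Values are the log2 difference in the GFP line minus that in the tdTomato line. *Aqp1* was lower in GFP-positive and higher in tdTomato-positive cells, a difference of -5.52. *Aqp3* was higher in GFP-positive and slightly lower in tdTomato-positive cells, a difference of 3.61. *Car12* went the same way as *Aqp3*, with a difference of 4.45, and was lower by 2.34 on the log2 scale in the tdTomato line (log2 difference -2.34). *Scnn1b* differed by 3.05 between the lines, but was almost level in the tdTomato line (19.3 and 18.7 TPM, log2 difference -0.04). *Kcnn4* differed by 1.87. *Slc12a7* differed by -2.01. Of these genes, *Aqp3*, *Scnn1b*, and *Slc12a7* were within 2-fold in the tdTomato line and *Kcnn4* in the GFP line and, after median-ratio scaling (-0.94), in the tdTomato line. That scaling also put *Slc12a7* within 2-fold in the GFP line (-0.44). The tdTomato difference of *Aqp3* turned to 0.80 after scaling to mature OSN markers.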

How the results depend on the processing

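No paired analysis was possible because there was 1 library per group and nothing was tested. The lines differ in enhancer and reporter, so they were not used as replicate pairs of 1 condition. A log2 value is called moved when it changed by more than 0.58, and a count or percent when it changed by more than 1.5 times. The numbers of the 6 genes at least 2-fold higher held under most alternatives, but in the tdTomato line 2 were higher with a pseudocount of 10 and 3 were at least 4-fold higher, and with scaling to mature OSN markers 5 were higher and 0 lower in the GFP line. That pseudocount gave medians of the 6 genes of 2.66 in the GFP line and 0.68 in the tdTomato line. Median-ratio scaling gave 4.34 in the GFP line, and scaling to mature OSN markers gave 6.43 and 2.37. These scalings shifted the median of all genes too, by 0.74 and 2.65 in the GFP line and 0.13 and 0.87 in the tdTomato line. Relative to the median of all genes, the 6 genes stood 4.24 higher in the GFP line as deposited and 4.32 to 4.52 higher under the scalings, and 1.83 and 1.69 to 1.84 higher in the tdTomato line. Each scaling divides a library by 1 factor, so these values could change only through the pseudocount and are no check of the result. The percent of all genes higher and lower was 5.52 and 21.6 in the GFP line and 7.98 and 9.88 in the tdTomato line with a pseudocount of 10. It was 6.63 and 15.0, and 7.72 and 10.7, with a 4-fold limit. In the GFP line it was 20.4 and 19.6 with median-ratio scaling, and 26.9 were lower without the highest genes. With scaling to mature OSN markers it was 73.7 and 6.93 in the GFP line and 36.0 and 11.8 in the tdTomato line. Median-ratio scaling left 4 pathway genes lower in the GFP line, and the cause was not tested. The shares of the aquaporins moved by less than 1.5 times when only the 4 aquaporins *Aqp1*, *Aqp3*, *Aqp4*, and *Aqp5* were summed. These 4 held most of the sum in every library (98.1 of 107.3 TPM in GFP-negative cells), so that limit was out of reach. The depth is unknown, which limits low values such as those of *Aqp1*.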

Other observations

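Some cell types were not set beside any of the 6 genes above. The 8 multiciliated cell markers summed to 891.9 and 2833 TPM in the GFP-negative and GFP-positive libraries, and to 839.8 and 9085 TPM in the tdTomato-negative and tdTomato-positive libraries. They were thus highest in tdTomato-positive cells, where *Scnn1a* was highest as well. The 4 markers of microvillar tuft cells, among them *Trpm5*, summed to 29.9 and 12.2 TPM in the GFP line and 92.1 and 12.2 TPM in the tdTomato line. The 3 immature OSN markers summed to 1445 and 268.3 TPM in the GFP line and 1034 and 565.6 TPM in the tdTomato line. The 4 immune markers gave 2122 and 2063 TPM in the GFP line and 1004 and 1730 TPM in the tdTomato line. Most of these sums was *Lyz2* (1581, 2043, 706.7, and 1707 TPM in GFP-negative, GFP-positive, tdTomato-negative, and tdTomato-positive cells), while the other 3 immune markers, *Ptprc*, *C1qa*, and *Cd79a*, were at least 2-fold lower in reporter-positive cells of both lines. The 5 fibroblast markers summed to 59.4 and 149.2 TPM in the GFP line and 35.4 and 34.4 TPM in the tdTomato line. The 5 olfactory ensheathing cell markers summed to 40.6 and 21.8 TPM in the GFP line and 17.1 and 36.4 TPM in the tdTomato line, and their members went opposite ways. *Sox10* was 3.18 and 19.7 TPM in the GFP line and 3.41 and 0.958 TPM in the tdTomato line, while *Fabp7* was 29.5 and 0.0511 TPM and 8.26 and 23.0 TPM. Of the fibroblast markers, 3 were at least 2-fold higher and 1 lower in the GFP line, and 5 were within 2-fold in the tdTomato line.

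The ratio of *Aqp5* to *Ano1* TPM was 3.39 in GFP-negative, 5.01 in GFP-positive, 2.49 in tdTomato-negative, and 9.16 in tdTomato-positive cells. The 2 genes of apical secretion were therefore not in 1 ratio across the libraries.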
